A study of Mus musculus with 38 samples.

Results

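Mouse embryonic stem cells kept for 8 days in serum-free medium with an inhibitor of glycogen synthase kinase 3 (GSK3) were set against cells kept for the same time in serum medium. The comparison takes the 3 RNA sequencing libraries labelled GSK3i/L and the 3 labelled S/L at 8 days. They were chosen by their labels alone and make up 6 of the 14 RNA libraries and 6 of the 38 samples of the series. All of these cells were E14, a feeder-free XY line of 129/Ola mice, grown on gelatin with leukaemia inhibitory factor (LIF), started in serum medium and passaged every 2 days. GSK3i/L was N2B27 medium with LIF and 3 µM CHIR99021, the GSK3 inhibitor, and contained no serum. S/L was DMEM with 15% fetal bovine serum and LIF. The basal medium therefore changes together with the inhibitor, and what either does alone cannot be told apart within these 6 libraries. The 3 libraries labelled MEKi/L came from cells in the same N2B27 medium with LIF and 1 µM of a MEK inhibitor in place of CHIR99021. They are used below to show which differences also appear with the serum change left out. That comparison exchanges CHIR99021 for the MEK inhibitor. A difference from MEKi/L can therefore come from either inhibitor, and their parts in it cannot be told apart. E14 is 1 line, and nothing in the labels says whether the triplicates came from separate cultures, so p-values measure the spread between these libraries, which may be technical.

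GSK3 is a kinase of many pathways. In the Wnt pathway it sits with Axin and APC in a complex that marks β-catenin for destruction, and when the kinase is blocked β-catenin builds up, enters the nucleus and acts with the TCF/LEF factors on genes such as Axin2, Sp5 and T. In embryonic stem cells the TCF factor Tcf7l1 represses pluripotency genes such as Esrrb and Tfcp2l1, and relief of that repression by β-catenin is the textbook reason for adding CHIR99021 to stem cell media. GSK3 also phosphorylates glycogen synthase, sterol regulatory factors and Myc, and serum supplies lipids, BMPs and growth factors that N2B27 lacks.

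Each gene has 1 deposited value per library, in log2 reads per 1000000 reads (RPM), and levels below are on the linear RPM scale. RPM is not divided by transcript length, so levels are compared between libraries and not between genes. The 6 columns share 1 distribution of values as deposited, so a shift of all genes together would not be seen. Depths, approximated from genes near 100 reads, were 18410000, 13120000 and 8079000 reads in GSK3i/L and 8124000, 9740000 and 9673000 reads in S/L. GSK3i/L replicate 1 stood apart. A score of the mean log2 level of 40 long transcripts less that of 40 short ones was 0.36, -1.65 and -2.67 in GSK3i/L replicates 1 to 3, against -2.89, -2.54 and -2.45 in S/L. The fit was repeated without replicate 1 and with the score as a covariate, and genes described below whose call was lost, or whose printed fold moved by over 1.5 times, when any 1 library was left out are given with that library named.

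The line was first checked against markers that define embryonic stem cells. Pou5f1, the core pluripotency factor Oct4, had 1557, 1329.6 and 1454 RPM in GSK3i/L, against 1364, 1387 and 1492 RPM in S/L. The groups overlapped, and the difference did not pass (log2 fold change 0.03 ± 0.17, adjusted p = 0.907). Sox2, Nanog, Sall4, Zfp42, Lin28a and Utf1 did not pass either, with log2 fold changes from -0.32 for Zfp42 to 0.48 for Sox2, so 7 of 10 defining markers gave no detected difference. Without GSK3i/L replicate 3, Sox2 and Lin28a passed as higher and Zfp42 as lower. The other 3 markers, Fut9, Esrrb and Alpl, were higher in GSK3i/L. All 10 were expressed in all 6 libraries. Fewer cells of a type and less RNA per cell cannot be told apart in these bulk libraries, here or in any result that follows.

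Of 14980 genes tested, 1407 (9.39%) were higher in GSK3i/L and 1509 (10.1%) were lower, at an adjusted p under 0.05 and at least 2-fold. Adjusted p-values come from limma with Benjamini-Hochberg adjustment, and fold changes are log2, GSK3i/L over S/L, ± SE with 3 libraries per group. Without the fold limit, which is not used for members of gene lists, 2516 genes (16.8%) were higher and 2150 (14.4%) lower. The values of the 2 groups did not overlap for 6080 genes (40.6%). The median difference over all tested genes was 0.06. Without GSK3i/L replicate 1 the counts at 2-fold were 1093 higher and 1036 lower, and with that score as a covariate they were 1098 and 1143.

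**Figure D1:**
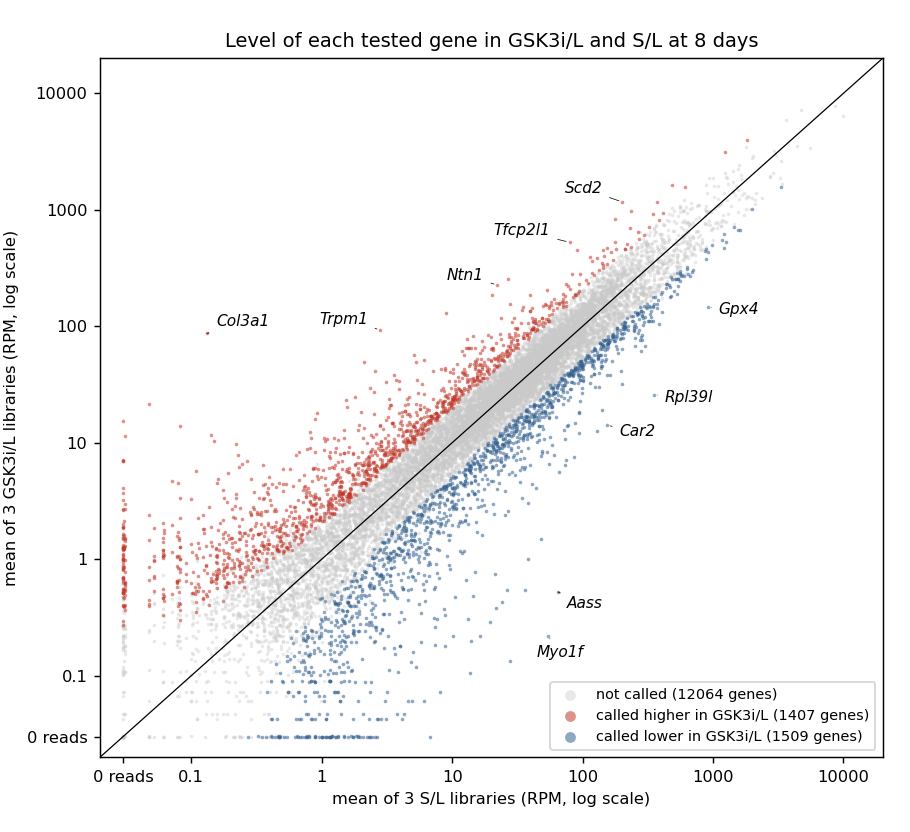
Mean level of each of 14980 tested genes in 3 GSK3i/L libraries (vertical) and in 3 S/L libraries (horizontal), in RPM on log axes, with means of 0 reads placed at the mark so labelled. Red points are the 1407 genes called higher in GSK3i/L, blue points the 1509 called lower, and the line marks equal levels. Col3a1 lies farthest above the line among the labelled genes, and Myo1f and Aass lie farthest below it.

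Abundant genes that rose formed a mixed group of matrix, lipid and signalling genes. The 15 largest rises among genes of at least 50 RPM in the higher group were led by Col3a1 (identifier ENSMUSG00000026043, chr1:45311538-45349706 in GRCm38), which encodes a fibrillar collagen of connective tissue. Col3a1 had 124, 85.0 and 51.0 RPM in GSK3i/L, against 0.241, 0 and 0.155 RPM in S/L (log2 fold change 9.12 ± 0.56, adjusted p = 2.28e-07). It was near absent from every S/L library, which hold 5 of its reads in all, and abundant in every GSK3i/L library. Trpm1, a cation channel known from melanocytes and retinal bipolar cells, had 49.8, 114 and 115 RPM in GSK3i/L, against 1.09, 5.01 and 2.36 RPM in S/L (log2 fold change 5.21 ± 0.44, adjusted p = 3.01e-06). Ntn1, the secreted guidance protein netrin-1, had 325, 217 and 134 RPM in GSK3i/L, against 20.9, 16.7 and 29.2 RPM in S/L (log2 fold change 3.29 ± 0.45, adjusted p = 0.000136). Neither pair of groups overlapped. Dnahc8, an axonemal dynein heavy chain, changed by 3.80 ± 0.29, and Col1a1, the main chain of type I collagen, by 3.38 ± 0.39 (adjusted p = 1.43e-06 and 3.44e-05).

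Metabolic enzymes filled much of the rest of that set. Scd2, a fatty acid desaturase, had the highest mean RPM of the 15 in GSK3i/L, not corrected for transcript length. It had 1689, 1169.7 and 636 RPM in GSK3i/L, against 205, 181 and 221 RPM in S/L (log2 fold change 2.42 ± 0.30, adjusted p = 6.8e-05). Its relative Scd1 had 372, 246 and 142 RPM in GSK3i/L, against 29.0, 24.9 and 26.4 RPM in S/L (log2 fold change 3.14 ± 0.28, adjusted p = 4.92e-06). In both genes the lowest GSK3i/L library was well above the highest S/L library. Acss1, a mitochondrial acetyl-CoA synthetase, Bdh1, a ketone body dehydrogenase, and Ephx2, a soluble epoxide hydrolase, changed by 3.01 ± 0.30, 2.52 ± 0.25 and 2.56 ± 0.25. Ly75, an endocytic receptor, Aff1, a subunit of the super elongation complex, and Grik3, a kainate receptor subunit, changed by 3.09 ± 0.31, 2.44 ± 0.28 and 2.32 ± 0.35. Tfcp2l1, a transcription factor of the naive state, had 744, 572 and 262 RPM in GSK3i/L, against 57.5, 95.7 and 85.3 RPM in S/L (log2 fold change 2.63 ± 0.35, adjusted p = 0.000103), with its highest value in replicate 1 and its lowest in replicate 3.

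The 15 largest falls were led by 2 genes that nearly disappeared. Myo1f, an unconventional myosin, had 0.337, 0 and 0.324 RPM in GSK3i/L, against 67.3, 55.1 and 39.4 RPM in S/L (log2 fold change -7.98 ± 0.49, adjusted p = 2.28e-07). Aass, the first enzyme of lysine degradation, had 0.337, 0.492 and 0.740 RPM in GSK3i/L, against 81.1, 47.5 and 66.3 RPM in S/L (log2 fold change -7.00 ± 0.41, adjusted p = 1.54e-07). Every S/L library was above 10 RPM for both genes and every GSK3i/L library was under 1 RPM. Without GSK3i/L replicate 2 the change of Myo1f was -7.32. Eras, a constitutively active Ras of embryonic stem cells, had 6.44, 4.09 and 12.1 RPM in GSK3i/L, against 91.0, 79.2 and 87.7 RPM in S/L (log2 fold change -3.65 ± 0.31, adjusted p = 3.41e-06). Car2, a carbonic anhydrase, had 15.4, 14 and 13.0 RPM in GSK3i/L, against 168, 122 and 169 RPM in S/L, the tightest of the 15 falls in GSK3i/L (log2 fold change -3.42 ± 0.20, adjusted p = 1.54e-07). Gpx4, a selenium-dependent enzyme that reduces lipid peroxides, had 49.5, 167 and 222 RPM in GSK3i/L, against 955, 955 and 816 RPM in S/L (log2 fold change -2.89 ± 0.46, adjusted p = 0.000471). Columns that share 1 distribution can hold equal values, as in 2 S/L libraries here. GSK3i/L replicate 1 was the lowest for Gpx4, as it was for Rpl39l, a ribosomal protein gene whose reads may be shared with its near-identical paralog Rpl39 and whose value is uncertain, and for Plac8, a gene first known from placenta. Rpl39l and Plac8 changed by -4.17 ± 0.65 and -3.75 ± 0.59. Without GSK3i/L replicate 1 the changes of Gpx4, Rpl39l and Plac8 were -2.24, -3.33 and -3.02, and all 3 kept their calls. Without GSK3i/L replicate 3 those of Rpl39l and Plac8 were -4.76 and -4.42.

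The other large falls were of genes with unlike roles. Sepp1, the plasma selenium carrier selenoprotein P, changed by -3.62 ± 0.54 (-4.30 without GSK3i/L replicate 3). Pla2g16, a phospholipase, Itga3, an integrin subunit for laminin, Perp, a p53 target of desmosomes, and S100a6, a calcium-binding protein, changed by -3.64 ± 0.38, -3.62 ± 0.30, -3.20 ± 0.32 and -3.01 ± 0.45. Cdkn1c, the imprinted cell cycle inhibitor p57, had 8.96, 10.9 and 16.3 RPM in GSK3i/L, against 86.2, 94.0 and 103 RPM in S/L. Tcf15, a basic helix-loop-helix factor of cells leaving the naive state, had 16.5, 6.80 and 8.97 RPM in GSK3i/L, against 72.2, 74.4 and 72.1 RPM in S/L. Lefty1, a secreted Nodal antagonist, had 16.1, 17.5 and 23.2 RPM in GSK3i/L, against 131, 195 and 95.2 RPM in S/L. No library of one group reached the range of the other in these 3 genes, which changed by -3.01 ± 0.24, -2.86 ± 0.27 and -2.84 ± 0.29. All 30 genes of the 2 sets kept their calls with the transcript score as a covariate.

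**Figure D2:**
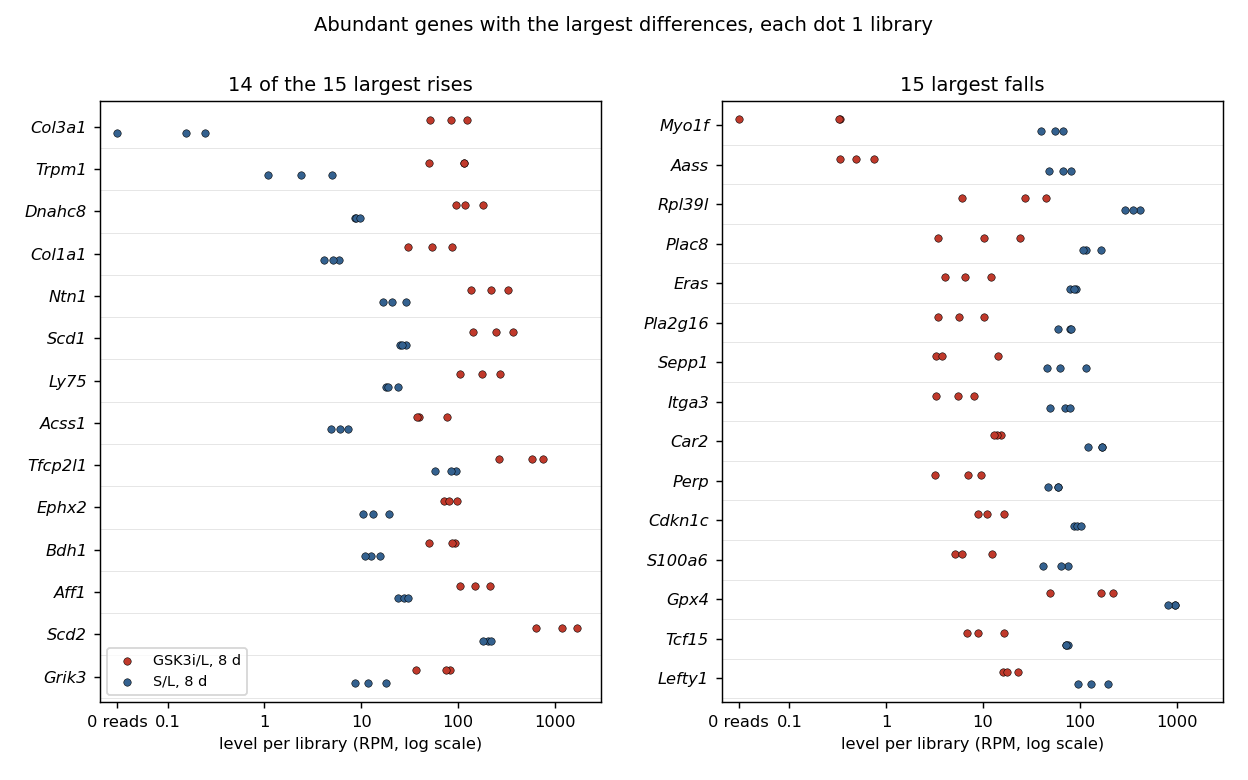
Level per library, in RPM on a log axis, of 14 of the 15 largest rises (left panel) and 15 largest falls (right panel) among genes of at least 50 RPM in the higher group. Red dots are the 3 GSK3i/L libraries and blue dots below them the 3 S/L libraries. The groups do not overlap for any gene shown, which the rule for choosing them required.

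Among direct targets of Wnt signalling, 8 of 24 tested members were higher in GSK3i/L and 1 was lower. All tested genes passed at 16.8% higher and 14.4% lower, the shares to set beside every list count against S/L below. The targets that rose had low or moderate levels, and several widely used targets did not pass. Axin2 (identifier ENSMUSG00000000142, chr11:108920349-108950783), a scaffold of the destruction complex and a feedback target of the pathway, had 59.2, 51.4 and 36.9 RPM in GSK3i/L, against 6.08, 4.20 and 5.67 RPM in S/L (log2 fold change 3.20 ± 0.24, adjusted p = 1.17e-06). Sp5, a zinc finger repressor, had 25.8, 25.1 and 20.5 RPM in GSK3i/L, against 4.85, 1.70 and 3.27 RPM in S/L (log2 fold change 2.98 ± 0.54, adjusted p = 0.0011). T, the brachyury factor of the primitive streak, had 15.2, 8.92 and 12.7 RPM in GSK3i/L, against 1.62, 0.379 and 0.435 RPM in S/L (log2 fold change 4.22 ± 0.54, adjusted p = 7.43e-05). None of the 3 showed any overlap between the groups, and without S/L replicate 1 the change of T was 4.89. The windows of 250 bases before the RefSeq start sites of Sp5 and T are shown because both hold the core motif of the TCF/LEF factors, CTTTGA or its reverse complement TCAAAG, in capitals (RefSeq, GRCm38.p6, plus strand, chr2:70474673-70474922 and chr17:8434173-8434422).
Sp5: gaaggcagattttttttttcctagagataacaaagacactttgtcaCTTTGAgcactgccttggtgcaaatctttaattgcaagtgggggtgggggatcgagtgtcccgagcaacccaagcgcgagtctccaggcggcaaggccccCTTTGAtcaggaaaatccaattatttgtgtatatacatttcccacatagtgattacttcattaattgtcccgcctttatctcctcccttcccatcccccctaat
T: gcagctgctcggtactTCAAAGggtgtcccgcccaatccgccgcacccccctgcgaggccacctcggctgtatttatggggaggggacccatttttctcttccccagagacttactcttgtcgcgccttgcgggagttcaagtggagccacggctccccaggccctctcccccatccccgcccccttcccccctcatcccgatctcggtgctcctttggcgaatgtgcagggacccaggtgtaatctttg
Sp5 holds the motif at 2 places and T at 1. It was found in 8 of the 15 tested members with a window, in 4 of the 7 that were higher, and in 12.8% of the 10130 tested genes with a window, searched on both strands. A match of letters is a description and not evidence of binding.

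Other targets varied. Cdx1, a homeobox factor of the posterior embryo, had 7.08, 2.70 and 3.02 RPM in GSK3i/L, against 0.878, 0.142 and 0.794 RPM in S/L (log2 fold change 3.06 ± 0.60, adjusted p = 0.00195). Without S/L replicate 2 its change was 2.21. Tnfrsf19, a receptor of the TNF family, changed by 1.44 ± 0.23. Nkd1, a cytoplasmic Wnt antagonist, changed by 1.88 ± 0.54, a call that was lost without GSK3i/L replicate 1 or 2 or S/L replicate 1 or 3. Mitf, the melanocyte and lysosome factor, had 27.8, 17.1 and 35.6 RPM in GSK3i/L, against 6.35, 4.64 and 5.45 RPM in S/L (log2 fold change 2.24 ± 0.27, adjusted p = 4.58e-05), and Trpm1, above, is one of its known targets in melanocytes. Tcf7, a TCF factor that is itself a target, had 77.7, 72.4 and 41.9 RPM in GSK3i/L, against 30.5, 46.1 and 36.2 RPM in S/L (log2 fold change 0.74 ± 0.26, adjusted p = 0.0456), and its call was lost without GSK3i/L replicate 1 or 2, without S/L replicate 1 or 3, with only the 6 libraries in the fit and with the score as a covariate. Myc was the member that fell, with 21.1, 6.22 and 17.4 RPM in GSK3i/L, against 45.2, 28.9 and 48.8 RPM in S/L (log2 fold change -1.60 ± 0.56, adjusted p = 0.0421), a call that was lost without GSK3i/L replicate 2 and without any 1 of the S/L libraries. Ccnd1, cyclin D1, had 139, 94.6 and 97.7 RPM in GSK3i/L, against 79.4, 86.2 and 93.7 RPM in S/L and did not pass (log2 fold change 0.33 ± 0.21, adjusted p = 0.223).

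Some members known as strong targets in other tissues did not pass. Lef1, a TCF/LEF factor, had 17.3, 14.8 and 12.6 RPM in GSK3i/L, against 15.5, 10.4 and 16.0 RPM in S/L (adjusted p = 0.828). Notum, a secreted enzyme that inactivates Wnt, had 51.7, 29.9 and 37.9 RPM in GSK3i/L, against 40.4, 21.2 and 25.2 RPM in S/L (adjusted p = 0.216). Rnf43 and Znrf3, membrane ubiquitin ligases that remove Wnt receptors, gave log2 fold changes of 0.45 ± 0.49 and 0.66 ± 0.25 (adjusted p = 0.507 and 0.0611), and Znrf3 passed as higher without GSK3i/L replicate 3 or S/L replicate 3. Sp8 and Ascl2, both transcription factors, and Kremen1 and Dkk1, antagonists at the receptor, did not pass. Nor did Nkd2, Apcdd1, Bambi, Cdx2, Wnt11 or Fgf20, of which Cdx2, Wnt11 and Fgf20 stayed under 1 RPM in all 6 libraries. Leaving out 1 library brought a pass for Apcdd1 as higher (S/L replicate 2), for Cdx2 as higher (GSK3i/L replicate 2 or S/L replicate 3) and for Bambi as lower (GSK3i/L replicate 3 or S/L replicate 3). Lgr5, Cdx4 and Fgf8 were too low to test. Axin2, T, Cdx1, Sp5, Nkd1 and Tnfrsf19 were also higher than in MEKi/L, where Sp5 had 0.381, 0 and 0.0948 RPM and T had 0.127, 0.288 and 0.284 RPM. Sp8, Rnf43, Lef1 and Cdx2 did not pass against S/L and were higher against MEKi/L, by 3.64, 3.93, 2.38 and 2.83 on the log2 scale. Lef1, for one, had 5.14, 1.87 and 2.37 RPM in MEKi/L.

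**Figure D3:**
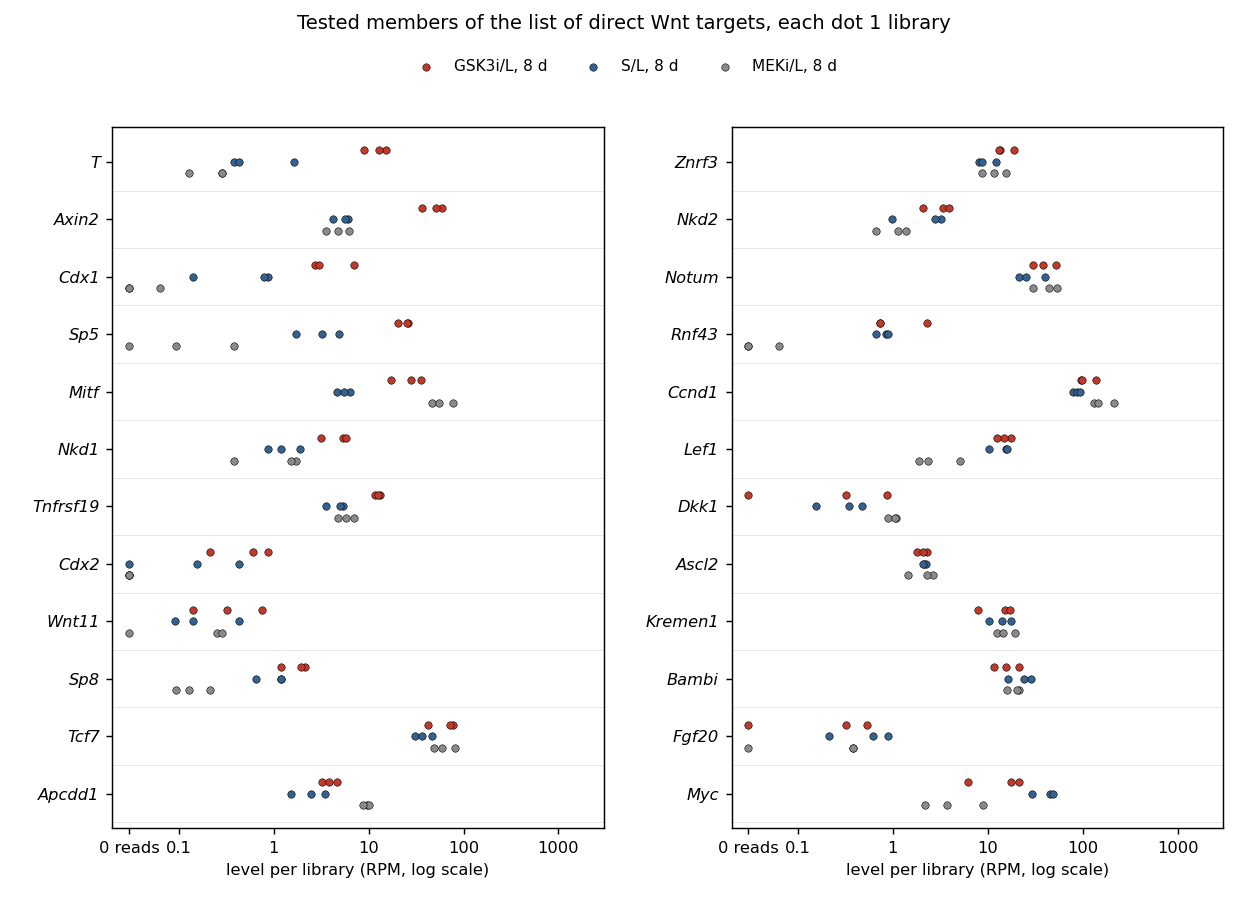
Level per library, in RPM on a log axis, of the 24 tested members of the list of direct Wnt targets, in order of their difference between GSK3i/L and S/L. Red dots are 3 GSK3i/L libraries, blue dots 3 S/L libraries and grey dots 3 MEKi/L libraries, all at 8 days. Axin2, Sp5 and T separate GSK3i/L from both other groups, whereas Ascl2, Kremen1 and Dkk1 overlap between GSK3i/L and S/L.

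Secreted parts of the pathway moved in both directions. Of the ligands 11 of 21 were expressed enough to test, with 2 higher and 5 lower (3 lower without S/L replicate 1 or 3). Wnt5b, a ligand of noncanonical signalling, had 7.98, 6.80 and 8.68 RPM in GSK3i/L, against 0.450, 0.647 and 0.794 RPM in S/L (log2 fold change 3.66 ± 0.39, adjusted p = 1.91e-05). Wls, the carrier that brings Wnt proteins to the cell surface, changed by 1.18 ± 0.28. Wnt4, a ligand of kidney and gonad, had 0.534, 0.215 and 0 RPM in GSK3i/L, against 4.71, 1.59 and 2.45 RPM in S/L, and Wnt7b, a ligand of epithelia, had 0.141, 0 and 0 RPM in GSK3i/L, against 4.71, 2.87 and 3.82 RPM in S/L. Wnt7b was left with 2 reads in all GSK3i/L libraries, so no fold is given (adjusted p = 5.09e-07). Wnt3, a ligand needed for the primitive streak, changed by -2.47 ± 0.44 (adjusted p = 0.00103).

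Antagonists that bind Wnt or its receptors included the larger rises, with 5 of 10 tested higher and 3 lower. Of the 10, 3 had 0 reads throughout S/L or GSK3i/L, among them Dkk2 and Frzb. Where such a gene reached the filter through GSK3i/L alone, its direction was fixed. Dkk2, an inhibitor at the LRP receptors, had 7.68, 6.27 and 6.81 RPM in GSK3i/L, against 0, 0 and 0 RPM in S/L, at least 21-fold above the level that 3 reads in each S/L library would give (adjusted p = 5.92e-07). That level was 0.329 RPM in S/L. Frzb, a secreted frizzled-related protein, had 10.0, 6.41 and 4.76 RPM in GSK3i/L, against 0, 0 and 0 RPM in S/L, also at least 21-fold higher (adjusted p = 1.07e-06). Dkk2 was at 0 in every MEKi/L library, and Frzb stood at 0.190, 0.144 and 0.0948 RPM there. Sfrp1 had 70.3, 110.1 and 77.3 RPM in GSK3i/L, against 21.1, 32.5 and 28.8 RPM in S/L (log2 fold change 1.64 ± 0.21, adjusted p = 8.74e-05), but MEKi/L stood higher still, at 380.4, 278 and 283 RPM. Dkk3, a divergent Dickkopf protein, had 30.1, 32.8 and 36.8 RPM in GSK3i/L, against 1.98, 4.64 and 2.76 RPM in S/L (log2 fold change 3.50 ± 0.29, adjusted p = 3e-06). The related Sfrp2 was lower (-1.74 ± 0.21).

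Receptors and the intracellular machinery gave fewer large differences. Among 19 tested receptors and agonists 3 were higher and 5 lower (15.8% and 26.3%), against 16.8% and 14.4% of all tested genes. Rspo3, an amplifier of Wnt signalling, had 1.68, 1.17 and 0.876 RPM in GSK3i/L, against 0, 0 and 0 RPM in S/L, at least 3-fold higher (adjusted p = 0.000415), while its relative Rspo1 had 0.200, 0.215 and 0.324 RPM in GSK3i/L, against 2.60, 3.77 and 2.36 RPM in S/L (log2 fold change -3.57 ± 0.62, adjusted p = 0.000812). Fzd10, a receptor, changed by 1.24 ± 0.17. The count of lower receptors ran from 1 (without GSK3i/L replicate 1 or S/L replicate 1) through 2 (without GSK3i/L replicate 2 or S/L replicate 2) to 3 (without replicate 3 of either group), and that of higher ones was 7 without GSK3i/L replicate 3. Among 17 tested members of β-catenin destruction and transduction 4 (23.5%) were higher in limma and 0 lower (1 at an unadjusted p under 0.05). Csnk1a1, casein kinase 1, the priming kinase for β-catenin, had 605, 593 and 419 RPM in GSK3i/L, against 289.6, 305 and 324 RPM in S/L (log2 fold change 0.80 ± 0.18, adjusted p = 0.00553). The count of 4 was 1 without GSK3i/L replicate 1 or 2 or S/L replicate 1, 11 without GSK3i/L replicate 3, and 0, Csnk1a1 included, when only the 6 libraries were fitted (7 at an unadjusted p under 0.05 in the fit of all libraries). Among 14 TCF/LEF factors and cofactors 3 (21.4%) were higher (Tcf7, Aes and Tle3) and 0 lower (1 at an unadjusted p under 0.05). That count was 0 without GSK3i/L replicate 2 or S/L replicate 1, 1 without GSK3i/L replicate 1 and 7 without GSK3i/L replicate 3. With the transcript score as a covariate 2 were higher and 3 lower, and the median log2 difference of the list was -0.07, against 0.24 without it.

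Of 28 listed factors of the primitive streak and posterior embryo 16 could be tested, and 8 were higher in limma and 0 lower (1 at an unadjusted p under 0.05). T, Cdx1 and Rspo3 are described above. Nkx1-2, a homeobox gene of the posterior epiblast, had 12.5, 8.54 and 13.3 RPM in GSK3i/L, against 0, 0 and 0.0935 RPM in S/L (adjusted p = 7.88e-09). A single read was found in S/L and none in MEKi/L, where 2i/L, with both inhibitors, had 33.9, 38.6 and 33.3 RPM. Evx1, a homeobox gene of the posterior streak, had 1.38, 0.746 and 0.876 RPM in GSK3i/L, against 0.0918, 0 and 0.155 RPM in S/L (adjusted p = 0.00115). Eomes, a T-box factor of early mesendoderm, had 9.02, 6.71 and 3.41 RPM in GSK3i/L, against 2.48, 2.09 and 2.36 RPM in S/L (log2 fold change 1.36 ± 0.34, adjusted p = 0.00964). Tbx3, a T-box factor also tied to the naive state, had 208, 148 and 89.7 RPM in GSK3i/L, against 48.1, 58.3 and 43.7 RPM in S/L (log2 fold change 1.50 ± 0.28, adjusted p = 0.00131). Gsc, an organizer gene, was also higher, with 0.597, 0.403 and 0.324 RPM in GSK3i/L, against 0.154, 0.215 and 0.155 RPM in S/L (log2 fold change 1.31 ± 0.32, adjusted p = 0.00868), a call that was lost with log2(RPM + 0.5), with log2(RPM + 1) and with only the 6 libraries in the fit. It stood at 6.98, 10.8 and 6.92 RPM in MEKi/L.

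Collagens moved in both directions, with 11 of 23 tested members higher and 4 lower. Beside Col3a1 and Col1a1, the type VI chain Col6a1 had 11.9, 10.4 and 7.26 RPM in GSK3i/L, against 0.344, 0.0893 and 0.232 RPM in S/L (log2 fold change 5.65 ± 0.73, adjusted p = 8.33e-05). Col1a2, the partner chain of type I collagen, had 12.4, 14.3 and 4.63 RPM in GSK3i/L, against 1.62, 0.559 and 0.997 RPM in S/L (log2 fold change 3.27 ± 0.53, adjusted p = 0.000459). Col6a3 had 4.73, 1.73 and 1.44 RPM in GSK3i/L, against 0, 0 and 0 RPM in S/L, at least 7-fold higher (adjusted p = 3.23e-05). In all of these the highest value was in GSK3i/L replicate 1 or 2 and the lowest in replicate 3. The falls included cartilage and vessel collagens. Col9a2, a chain of cartilage collagen, had 0.337, 0.660 and 0.461 RPM in GSK3i/L, against 11.5, 16.0 and 15.7 RPM in S/L (log2 fold change -4.93 ± 0.68, adjusted p = 0.000148), and Col18a1, a basement membrane collagen that holds endostatin, had 181, 144 and 82.4 RPM in GSK3i/L, against 273, 349 and 377 RPM in S/L (log2 fold change -1.35 ± 0.31, adjusted p = 0.0055).

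Other matrix proteins followed, with 14 of 30 tested higher and 3 lower. Fn1, fibronectin, had the highest mean RPM of them in GSK3i/L, not corrected for transcript length. It had 1471, 693 and 336 RPM in GSK3i/L, against 155, 199 and 179.7 RPM in S/L (log2 fold change 1.98 ± 0.48, adjusted p = 0.00733). Its 3 GSK3i/L values differ among themselves by more than any S/L values do. Tnc, the matricellular protein tenascin C, had 23.0, 11.9 and 7.16 RPM in GSK3i/L, against 0.154, 0 and 0.0935 RPM in S/L (adjusted p = 6.78e-07), with 3 reads in S/L in all. Tnc reached the filter through GSK3i/L alone, which fixes its direction, and the higher count includes it. Fbn2, a microfibril protein, had 17.4, 7.76 and 5.67 RPM in GSK3i/L, against 0, 0.215 and 0.232 RPM in S/L (log2 fold change 5.83 ± 0.62, adjusted p = 1.87e-05). Thbs1, thrombospondin 1, had 51.0, 40.0 and 30.2 RPM in GSK3i/L, against 8.33, 6.28 and 14.5 RPM in S/L (log2 fold change 2.11 ± 0.37, adjusted p = 0.000871) and was at 0.698, 0.648 and 0.948 RPM in MEKi/L. Lum, the proteoglycan lumican, had 1.15, 1.08 and 0.876 RPM in GSK3i/L, against 0, 0 and 0 RPM in S/L, at least 3-fold higher (adjusted p = 0.000106). The lower count was 1 without GSK3i/L replicate 2 or S/L replicate 1 or 2. Basement membrane genes had 6 of 20 tested members higher and 0 lower (0 at an unadjusted p under 0.05), among them Lama1, the laminin chain of early embryos, with 162, 70.0 and 55.7 RPM in GSK3i/L, against 23.8, 34.7 and 35.4 RPM in S/L (log2 fold change 1.48 ± 0.36, adjusted p = 0.0081). That count was 3 without S/L replicate 1 and 10 without GSK3i/L replicate 3. With the transcript score as a covariate 5 were higher and 3 lower, and the median log2 difference of the list was 0.25, against 0.84 without it.

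Factors and adhesion proteins of mesenchyme changed with a few clear members. Of 18 tested mesenchymal transcription factors 5 were higher and 4 lower (27.8% and 22.2%), against 16.8% and 14.4% of all tested genes. Prrx1, a homeobox factor of limb and craniofacial mesenchyme, had 8.33, 5.15 and 7.26 RPM in GSK3i/L, against 0, 0 and 0 RPM in S/L, at least 20-fold higher (adjusted p = 1.06e-06), and was at 0 in every MEKi/L library. Prrx1 reached the filter through GSK3i/L alone, which fixes its direction, and 4 of the 18 factors had 0 reads throughout S/L or GSK3i/L. Foxc1, a forkhead factor of mesoderm, had 4.41, 3.42 and 1.15 RPM in GSK3i/L, against 0, 0 and 0.0935 RPM in S/L, and Foxd1, a forkhead factor of kidney stroma, had 2.92, 2.21 and 2.10 RPM in GSK3i/L, against 0, 0.215 and 0.155 RPM in S/L (adjusted p = 4.98e-05 and 0.00028). Snai2 and Zeb1, repressors of epithelial genes, changed by 2.29 ± 0.45 and 1.07 ± 0.28. Cdh11, the cadherin of mesenchyme, had 13.7, 7.55 and 13.8 RPM in GSK3i/L, against 0.241, 0.0893 and 0.0935 RPM in S/L (log2 fold change 6.48 ± 0.60, adjusted p = 5.65e-06).

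Markers of fibroblasts and feeder cells moved with these genes. Of the 18 markers 13 could be tested, 10 were higher and 1 lower, and their summed level was 1079 to 2684 RPM in GSK3i/L and 609 to 858 RPM in S/L. Without GSK3i/L replicate 1 the count was 6. Col1a1, Col1a2, Col3a1, Fn1 and Lum, described above, are themselves on that list, and the lower member is Tagln. Fap, Mgp and Dpt were at 0 in all 6 libraries, and Dcn, a marker of most fibroblasts, was at 0.141, 0 and 0 RPM in GSK3i/L and 0.241, 0.0893 and 0 RPM in S/L. Thy1 had 7.34, 4.09 and 6.59 RPM in GSK3i/L, against 5.81, 5.60 and 5.02 RPM in S/L and did not pass (adjusted p = 0.85). Vim, vimentin, had 640.1, 399.8 and 309.6 RPM in GSK3i/L, against 112, 72.4 and 89.5 RPM in S/L (log2 fold change 2.26 ± 0.30, adjusted p = 0.000112). The labels describe culture without feeder cells, and the part of such cells in the collagen and matrix results was not tested.

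Epithelial junction and contractile genes leaned the other way in their counts against S/L. Of 29 tested junction genes 11 were lower and 5 higher. Against MEKi/L 6 were higher and 3 lower. The summed level of the junction list overlapped, at 954.6 to 1585 RPM in GSK3i/L and 1139 to 1253 RPM in S/L. Krt18, a keratin of simple epithelia, had 5.97, 6.94 and 6.59 RPM in GSK3i/L, against 51.8, 21.9 and 44.2 RPM in S/L (log2 fold change -2.51 ± 0.36, adjusted p = 0.000194). Cldn6, a claudin of early epithelia, had 11.3, 16.5 and 8.15 RPM in GSK3i/L, against 38.2, 48.7 and 51.8 RPM in S/L (log2 fold change -1.99 ± 0.34, adjusted p = 0.000764), and Epcam, an epithelial adhesion protein, had 74.0, 77.3 and 76.1 RPM in GSK3i/L, against 162, 162 and 159 RPM in S/L (log2 fold change -1.09 ± 0.18, adjusted p = 0.000477). No overlap was seen for any of the 3. Grhl2, a factor of epithelial identity, and Ocln, occludin, changed by -2.0 ± 0.35 and -1.50 ± 0.29. Cdh1, E-cadherin, had 458, 262 and 178 RPM in GSK3i/L, against 184, 227 and 226 RPM in S/L and did not pass (adjusted p = 0.337). Gap junction genes split, with Gjb5 higher (1.61) and Gjb1 lower (-2.59). Among 14 tested integrins 3 were lower (21.4%), against 14.4% of all tested genes. They included Itga5, the fibronectin receptor subunit, with 23.7, 17.4 and 12.5 RPM in GSK3i/L, against 53, 45.3 and 49.6 RPM in S/L (log2 fold change -1.51 ± 0.27, adjusted p = 0.00106). The call of the 1 higher integrin, Itgav, was lost without any 1 of the 6 libraries except GSK3i/L replicate 3. It was also lost with only the 6 libraries in the fit, with no filter and in limma without trend and robust.

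Serum activates contractile genes through serum response factor. Among 29 tested members of that list 9 were lower and 4 higher (1 to 8 higher when 1 library was left out, lowest without GSK3i/L replicate 2 and highest without GSK3i/L replicate 3). Against MEKi/L 8 were higher and 3 lower. The summed level of the list overlapped, at 2865 to 4843 RPM in GSK3i/L and 3119 to 3890 RPM in S/L. Tagln, the smooth muscle protein transgelin, had 37.3, 51.8 and 94.1 RPM in GSK3i/L, against 382, 163 and 291 RPM in S/L (log2 fold change -2.21 ± 0.44, adjusted p = 0.00212). Cnn1, calponin 1, had 1.09, 0.995 and 1.44 RPM in GSK3i/L, against 13.4, 8.95 and 12.2 RPM in S/L (log2 fold change -3.29 ± 0.62, adjusted p = 0.00166), and Tpm2, a tropomyosin, had 11.3, 12.9 and 17.9 RPM in GSK3i/L, against 50.4, 41.4 and 47.7 RPM in S/L (log2 fold change -1.75 ± 0.21, adjusted p = 4.85e-05). Each S/L library was above each GSK3i/L library in these genes. Acta1, skeletal muscle actin, had 0.337, 0 and 0.182 RPM in GSK3i/L, against 3.88, 1.89 and 4.90 RPM in S/L (log2 fold change -4.26 ± 0.70, adjusted p = 0.000582). Ctgf, a target of YAP and serum response factor, changed by -1.49 ± 0.18. Acta2, smooth muscle actin, went the other way, with 35.7, 38.3 and 33.5 RPM in GSK3i/L, against 29.7, 11.7 and 13.8 RPM in S/L, but its call was lost without any 1 of GSK3i/L replicates 1 and 2 and S/L replicates 2 and 3. The window before the start site of Acta1 is shown because it holds the serum response motif, the CArG box, in capitals (RefSeq, GRCm38.p6, minus strand, chr8:123894776-123895025).
Acta1: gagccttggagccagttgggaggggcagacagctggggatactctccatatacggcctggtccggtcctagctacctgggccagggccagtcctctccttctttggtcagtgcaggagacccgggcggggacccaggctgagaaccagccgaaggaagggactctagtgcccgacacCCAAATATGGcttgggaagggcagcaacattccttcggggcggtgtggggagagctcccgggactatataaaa
The CArG box was found in 10 of 23 tested members of the list with a window, in 2 of the 4 higher ones, in 2 of the 5 lower ones, and in 1.42% of the 10130 tested genes with a window.

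**Figure D4:**
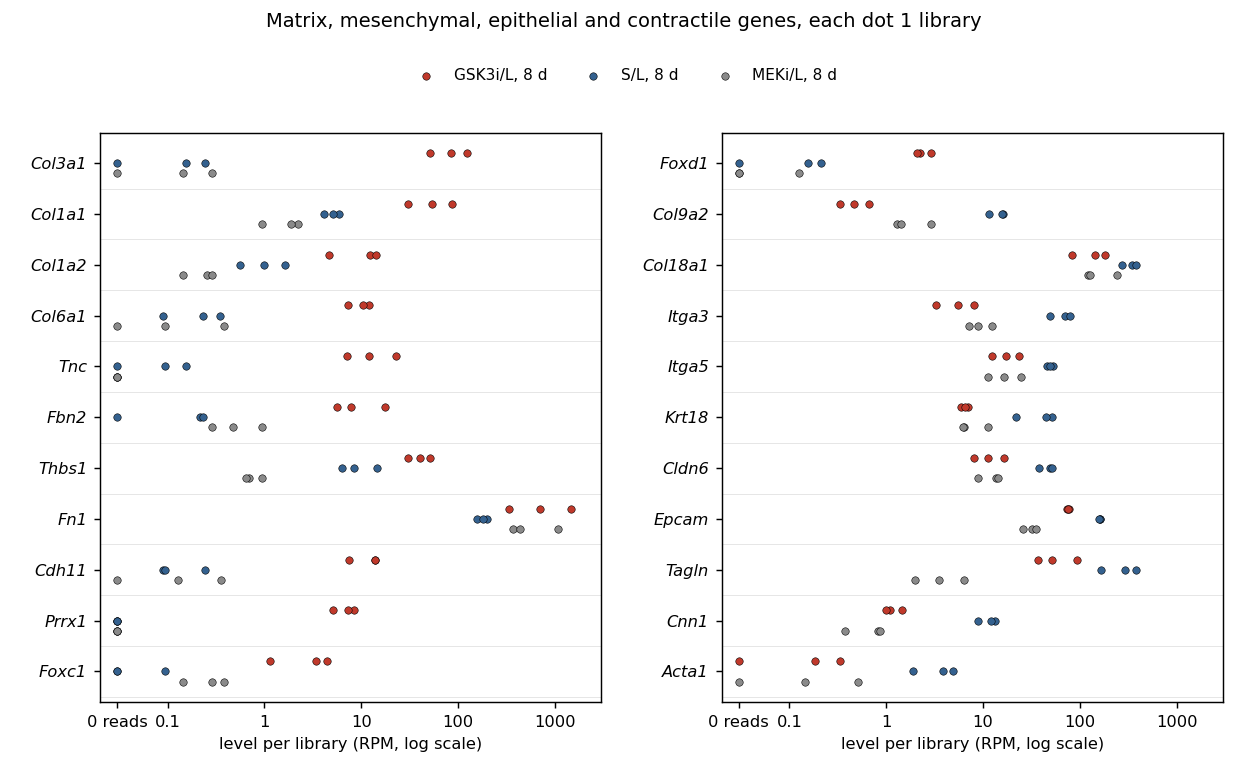
Level per library, in RPM on a log axis, of 22 genes of matrix, mesenchyme, epithelial junctions and contraction. Red dots are 3 GSK3i/L libraries, blue dots 3 S/L libraries and grey dots 3 MEKi/L libraries. GSK3i/L stands apart from both other groups for Col3a1, Col6a1, Tnc, Cdh11 and Prrx1, and lies near MEKi/L, away from S/L, for Itga3, Itga5, Krt18 and Cldn6.

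Cholesterol synthesis genes were mostly higher, with 19 of 25 tested members higher and 1 lower, and a median log2 difference of 0.88 against 0.06 for all tested genes. Hmgcs1, which makes the HMG-CoA of the pathway, had 422, 333 and 275 RPM in GSK3i/L, against 121, 167 and 177 RPM in S/L (log2 fold change 1.14 ± 0.22, adjusted p = 0.00186). Sqle, squalene epoxidase, had 213, 178 and 163 RPM in GSK3i/L, against 86.5, 78.9 and 98.0 RPM in S/L (log2 fold change 1.07 ± 0.19, adjusted p = 0.00084). The groups were separate in both genes, and the changes were near 2-fold. Stard4, a sterol transporter, changed most (1.31 ± 0.14). Scap, the sterol-sensing escort of the SREBP factors, was the lower member (-0.99 ± 0.20). The higher count stayed between 16 and 20 when single libraries were left out. The window before the start site of Hmgcs1 is shown with the sterol response element TCACNCCAC in capitals (RefSeq, GRCm38.p6, plus strand, chr13:119690101-119690350).
Hmgcs1: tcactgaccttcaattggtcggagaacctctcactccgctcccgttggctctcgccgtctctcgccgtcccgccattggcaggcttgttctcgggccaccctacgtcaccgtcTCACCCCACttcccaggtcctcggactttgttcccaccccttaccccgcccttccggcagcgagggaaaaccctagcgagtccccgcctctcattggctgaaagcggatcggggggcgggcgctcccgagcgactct
It was the only one of 16 tested members with a window that held these letters, on either strand, against 1.31% of the 10130 tested genes with a window.

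Fatty acid genes rose in 12 of 24 tested members and fell in 3 (1 without GSK3i/L replicate 2 or S/L replicate 1 or 3). Next to Scd1 and Scd2, the desaturase Fads1 had 171, 167 and 95.7 RPM in GSK3i/L, against 41.3, 42.5 and 39.6 RPM in S/L (log2 fold change 1.77 ± 0.22, adjusted p = 7.7e-05), and Fads2, the desaturase before it in the pathway, changed by 1.36 ± 0.24. Acss2, the cytosolic acetyl-CoA synthetase, and Acsl1, a long-chain acyl-CoA synthetase, changed by 1.33 ± 0.20 and 1.34 ± 0.24. Fasn, fatty acid synthase, had 670.3, 301 and 196 RPM in GSK3i/L, against 175, 229 and 255 RPM in S/L and did not pass (adjusted p = 0.182), although it passed as higher without GSK3i/L replicate 3. Apoe, a lipid carrier and target of the LXR receptors, had 1071, 1516 and 913 RPM in GSK3i/L, against 265, 484 and 374 RPM in S/L (log2 fold change 1.65 ± 0.25, adjusted p = 0.000273). Against MEKi/L, 1 of the 24 fatty acid genes was higher and 0 lower (3 at an unadjusted p under 0.05), and 2 of the 25 cholesterol genes were higher and 1 lower. Scd1 stood at 367, 228 and 226 RPM in MEKi/L and Hmgcs1 at 469, 369 and 324 RPM.

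Amino acid and antioxidant genes also leaned upward. Of 20 tested members of the ATF4 and amino acid stress list 9 were higher and 0 lower (0 at an unadjusted p under 0.05). Asns, asparagine synthetase, had 1143, 1095 and 681 RPM in GSK3i/L, against 205, 228 and 272 RPM in S/L (log2 fold change 2.02 ± 0.21, adjusted p = 1.36e-05). Nupr1, a stress-induced chromatin protein, and Slc1a5, a glutamine carrier, changed by 1.48 ± 0.28 and 1.24 ± 0.24. The count was 5 without GSK3i/L replicate 1 or 2 and 5 without S/L replicate 2. Ddit3, the stress factor CHOP, and Atf4 itself did not pass, with log2 fold changes of 0.10 ± 0.31 and 0.13 ± 0.20.

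Antioxidant and metallothionein genes had 13 of 26 tested members higher and 2 lower. Gpx2, a glutathione peroxidase of epithelia, had 41.8, 44.6 and 36.5 RPM in GSK3i/L, against 2.36, 4.20 and 1.19 RPM in S/L (log2 fold change 4.17 ± 0.35, adjusted p = 2.94e-06). Its direction was opposite to that of Gpx4. Cat, catalase, had 149, 162 and 103 RPM in GSK3i/L, against 26.5, 39.8 and 36.3 RPM in S/L (log2 fold change 2.01 ± 0.20, adjusted p = 1.03e-05), and Mt1, a metal-binding metallothionein, had 245, 356 and 249.8 RPM in GSK3i/L, against 72.8, 99.5 and 77.5 RPM in S/L (log2 fold change 1.76 ± 0.18, adjusted p = 1.48e-05). Gsr, glutathione reductase, changed by 1.73 ± 0.26 and Mt2, the second metallothionein, by 1.61 ± 0.20. Nqo1, a well-known NRF2 target, had 46.0, 71.6 and 94.7 RPM in GSK3i/L, against 50.4, 53.9 and 30.9 RPM in S/L and did not pass (adjusted p = 0.18). The count of 13 was 7 without GSK3i/L replicate 1 and 8 without S/L replicate 1, and the 5 genes named as higher kept their calls in each of those fits.

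Enzymes of threonine, glycine and methyl group metabolism had 8 of 27 tested members higher and 3 lower (1 lower without any 1 of the 6 libraries except GSK3i/L replicate 3, and 5 without that one). Tdh, threonine dehydrogenase, on which mouse embryonic stem cells depend, had 903, 605 and 572 RPM in GSK3i/L, against 243, 216 and 233 RPM in S/L (log2 fold change 1.56 ± 0.20, adjusted p = 8.71e-05). Gldc, glycine decarboxylase, had 662, 622 and 307 RPM in GSK3i/L, against 120.4, 204 and 204 RPM in S/L (log2 fold change 1.55 ± 0.30, adjusted p = 0.00193), and Gcat, the enzyme after Tdh, had 156, 184 and 143 RPM in GSK3i/L, against 51.1, 63.5 and 57.4 RPM in S/L (log2 fold change 1.49 ± 0.17, adjusted p = 2.57e-05). These 3 abundant genes of a single route were higher together, and all 3 were also higher than in MEKi/L (log2 fold changes 1.07, 1.10 and 0.71). Dmgdh, an enzyme of choline breakdown, and Bhmt2, a homocysteine methyltransferase, rose to moderate levels in GSK3i/L, with changes of 3.69 ± 0.21 and 4.09 ± 0.39.

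GSK3 takes its name from glycogen synthase. Of 21 tested glycogen genes 4 were higher and 3 lower (19% and 14.3%), near the shares of all tested genes (16.8% and 14.4%). Pygm, muscle glycogen phosphorylase, had 5.12, 5.22 and 3.02 RPM in GSK3i/L, against 0.990, 1.13 and 1.47 RPM in S/L (log2 fold change 1.88 ± 0.29, adjusted p = 0.000335), and Pgm1, which links glycogen to glucose 6-phosphate, had 48.9, 47.7 and 33.3 RPM in GSK3i/L, against 15.2, 19.4 and 16.4 RPM in S/L (log2 fold change 1.33 ± 0.18, adjusted p = 9.62e-05). Gys1, glycogen synthase itself, had 44.5, 40.8 and 29.2 RPM in GSK3i/L, against 41.4, 41.9 and 47.3 RPM in S/L and did not pass (adjusted p = 0.38). The lower count was 0 without GSK3i/L replicate 2 or S/L replicate 1 and 1 without GSK3i/L replicate 1 or S/L replicate 2, and the higher count was 8 without GSK3i/L replicate 3. Glycolysis and hypoxia genes split, with 7 of 29 higher and 5 lower (24.1% and 17.2%), against 16.8% and 14.4% of all tested genes. The higher count was 4 without GSK3i/L replicate 1 or 2 or S/L replicate 1 and 12 without GSK3i/L replicate 3, and the lower count was 3 without GSK3i/L replicate 1 or S/L replicate 2 or 3. Aldoc, an aldolase, changed by 1.69 ± 0.24 and Hk1, a hexokinase, by 1.89 ± 0.37, while Bnip3, a hypoxia-induced mitophagy receptor, had 29.5, 93.2 and 107 RPM in GSK3i/L, against 384, 267 and 200.2 RPM in S/L (log2 fold change -2.04 ± 0.50, adjusted p = 0.00807, or -1.46 without GSK3i/L replicate 1). Among 12 tested genes of iron handling, Trf, transferrin, had 64.9, 25.6 and 25.1 RPM in GSK3i/L, against 2.23, 4.00 and 4.46 RPM in S/L (log2 fold change 3.34 ± 0.35, adjusted p = 1.67e-05) and Steap3, an endosomal iron reductase, had 0.991, 0.586 and 0.740 RPM in GSK3i/L, against 20.0, 12.0 and 13.2 RPM in S/L (log2 fold change -4.28 ± 0.40, adjusted p = 6.32e-06).

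Lysosome genes had 20 of 35 tested members higher and 3 lower, with a median log2 difference of 0.66. Their known regulators are the TFE factors, which GSK3 and mTORC1 hold in the cytoplasm by phosphorylation. Tfeb, one of these factors, had 85.8, 50.4 and 49.9 RPM in GSK3i/L, against 17.3, 18.8 and 25.5 RPM in S/L (log2 fold change 1.57 ± 0.23, adjusted p = 0.000198), and Mitf, another, is given above. Lamp1, a protein of the lysosomal membrane, had 516, 558 and 442 RPM in GSK3i/L, against 264, 367 and 314 RPM in S/L (log2 fold change 0.69 ± 0.18, adjusted p = 0.0102), a call that was lost without S/L replicate 1 and with only the 6 libraries in the fit. Ctsb, a lysosomal protease, had 130.2, 176 and 145 RPM in GSK3i/L, against 50.4, 65.2 and 51.6 RPM in S/L (log2 fold change 1.43 ± 0.17, adjusted p = 4.22e-05), and Lamp2 had 109, 151 and 199 RPM in GSK3i/L, against 54.1, 54.9 and 49.6 RPM in S/L (log2 fold change 1.49 ± 0.21, adjusted p = 0.000149). The lowest GSK3i/L library was above the highest S/L library in each of them. Gpnmb, a glycoprotein and known target of Mitf, had 3.03, 2.37 and 2.77 RPM in GSK3i/L, against 0.344, 0.215 and 0.155 RPM in S/L (log2 fold change 3.59 ± 0.30, adjusted p = 3.01e-06). Tfe3 had 119.7, 89.1 and 56.2 RPM in GSK3i/L, against 57.7, 77.2 and 97.7 RPM in S/L and did not pass (adjusted p = 0.695). Ctsf, a cathepsin, was lower (-1.86 ± 0.21). The higher count stayed between 15 and 20 when single libraries were left out. Against MEKi/L, in the same basal medium, 7 of the 35 members were higher and 6 lower, where 5.65% and 12.2% of all tested genes passed. The window before the start site of Lamp1 is shown because it holds the CLEAR motif of the TFE factors, TCACGTG, at 4 places (RefSeq, GRCm38.p6, plus strand, chr8:13158911-13159160).
Lamp1: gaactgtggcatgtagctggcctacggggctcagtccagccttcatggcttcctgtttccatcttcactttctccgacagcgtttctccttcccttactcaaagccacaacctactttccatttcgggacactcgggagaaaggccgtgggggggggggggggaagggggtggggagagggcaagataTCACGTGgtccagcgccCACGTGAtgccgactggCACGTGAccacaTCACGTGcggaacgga
The motif, on either strand, was found in 7 of 29 tested members with a window, in 4 of the 17 higher ones, and in 5.63% of the 10130 tested genes with a window.

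Signalling genes outside the Wnt pathway also changed. Of 16 tested FGF ligands and receptors 8 were lower and 1 higher. Fgf15, a secreted FGF of the epiblast and gut, had 0.734, 0.492 and 0.182 RPM in GSK3i/L, against 8.98, 10.1 and 12.4 RPM in S/L (log2 fold change -4.69 ± 0.49, adjusted p = 1.49e-05), and Fgf1, acidic FGF, had 0.534, 0.215 and 0.182 RPM in GSK3i/L, against 7.86, 5.50 and 8.41 RPM in S/L (log2 fold change -4.69 ± 0.64, adjusted p = 0.000134). Fgf4, the FGF that drives ERK signalling in embryonic stem cells, had 183, 237 and 158 RPM in GSK3i/L, against 101, 154 and 143 RPM in S/L and did not pass (adjusted p = 0.0824), although it passed as higher without GSK3i/L replicate 3. The higher member was Fgf10, an FGF of branching organs, with 5.08, 3.06 and 4.50 RPM in GSK3i/L, against 0.763, 0.745 and 0.711 RPM in S/L (log2 fold change 2.48 ± 0.26, adjusted p = 1.67e-05). Of 22 tested MEK-ERK feedback genes 6 were lower and 2 higher. The count of 2 was 0 without replicate 1 or 2 of either group and 1 without S/L replicate 3. Dusp5, a nuclear ERK phosphatase, changed by -1.91 ± 0.29 and Epha2, an ephrin receptor, by -1.18 ± 0.24, and Dusp6, the cytoplasmic ERK phosphatase, had 73.2, 41.7 and 40.9 RPM in GSK3i/L, against 50.6, 42.5 and 70.5 RPM in S/L and did not pass (adjusted p = 0.809).

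Of 25 tested members of the BMP, SMAD and Id list 9 were higher and 2 lower, the lower ones being Id1 and Id2, inhibitors of differentiation that BMP in serum is known to induce. Id1 had 7.68, 3.42 and 14.4 RPM in GSK3i/L, against 47.6, 45.1 and 53.1 RPM in S/L (log2 fold change -2.74 ± 0.49, adjusted p = 0.00108), and Id2 had 4.66, 3.00 and 5.67 RPM in GSK3i/L, against 39.8, 44.1 and 39.0 RPM in S/L (log2 fold change -3.25 ± 0.28, adjusted p = 3.63e-06). The ligand Bmp4 had 49.2, 30.4 and 40.0 RPM in GSK3i/L, against 15.2, 9.82 and 11.5 RPM in S/L (log2 fold change 1.71 ± 0.40, adjusted p = 0.00689), and Smad9, a BMP-regulated SMAD, had 5.39, 5.10 and 6.59 RPM in GSK3i/L, against 0.0918, 0.142 and 0.0935 RPM in S/L (log2 fold change 5.73 ± 0.27, adjusted p = 1.93e-08). The related Id4 was higher (2.50 ± 0.21), and Id3 had 69.4, 35.8 and 44.0 RPM in GSK3i/L, against 28.4, 27.8 and 19.7 RPM in S/L (adjusted p = 0.25). Nodal, a TGF-β family ligand, had 38.9, 31.4 and 54.2 RPM in GSK3i/L, against 95.4, 79.9 and 96.6 RPM in S/L (log2 fold change -1.16 ± 0.19, adjusted p = 0.000475). Its antagonist Lefty1 is described above. Of 19 tested members of the Nodal list 5 were lower and 4 higher (26.3% and 21.1%), against 14.4% and 16.8% of all tested genes. The higher count was 1 without GSK3i/L replicate 1 and 2 without GSK3i/L replicate 2.

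LIF is present in both media. Of 19 tested members of the LIF and STAT3 list 9 were higher and 1 lower (with the score as a covariate 6 were lower). Klf4, a naive factor and STAT3 target, had 334, 202 and 153 RPM in GSK3i/L, against 64.6, 83.7 and 75.2 RPM in S/L (log2 fold change 1.55 ± 0.25, adjusted p = 0.000496). Il6st, the shared receptor subunit gp130, changed by 0.87 ± 0.18. Osm, a cytokine of the LIF family, had 6.93, 6.41 and 6.24 RPM in GSK3i/L, against 0.0918, 0.306 and 0.331 RPM in S/L (log2 fold change 4.95 ± 0.37, adjusted p = 1.28e-06, or 4.36 without S/L replicate 1). Socs3, the feedback inhibitor of STAT3, had 118, 86.4 and 87.6 RPM in GSK3i/L, against 81.3, 86.6 and 98.5 RPM in S/L and did not pass (adjusted p = 0.682). Retinoid genes split, with 6 of 22 higher and 5 lower (27.3% and 22.7%), against 16.8% and 14.4% of all tested genes. Rarg, a retinoic acid receptor, had 56.9, 26.1 and 30.5 RPM in GSK3i/L, against 134, 149.9 and 175 RPM in S/L (log2 fold change -2.09 ± 0.32, adjusted p = 0.000363), Stra8, a retinoic acid target of germ cells, had 0.200, 1.08 and 0.461 RPM in GSK3i/L, against 6.22, 10.1 and 5.86 RPM in S/L (log2 fold change -3.95 ± 0.71, adjusted p = 0.00106, or -3.34 without GSK3i/L replicate 1 and -4.56 without GSK3i/L replicate 2), and Aldh1a2, which makes retinoic acid, had 2.60, 3.15 and 4.12 RPM in GSK3i/L, against 0.241, 1.13 and 1.47 RPM in S/L (log2 fold change 2.13 ± 0.53, adjusted p = 0.00922), a call that was lost with only the 6 libraries in the fit and a change of 1.33 without S/L replicate 1. Among the members named here the receptor and the target were lower and the synthesis enzyme was higher, which does not sum up the list. Of the other members, Stra6, Nr2f1 and Nr2f2 passed as higher in the reported fit and Rxrg and Dhrs3 as lower.

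Pluripotency genes sorted by state against S/L, but not against MEKi/L. Of 16 tested naive factors 9 were higher and 1 lower, and of 20 tested formative and primed genes 12 were lower and 2 higher, the 2 being T and Nkx1-2. Against MEKi/L 2 naive factors were higher and 5 lower, and 6 formative and primed genes were higher and 4 lower. The summed level of the naive factors was 3587 to 4888 RPM in GSK3i/L and 2160 to 2562 RPM in S/L. It was 4581, 3680 and 3876 RPM in MEKi/L. Pou3f1, the formative factor Oct6, had 1.85, 0.827 and 0.324 RPM in GSK3i/L, against 35.1, 29.4 and 49.9 RPM in S/L (log2 fold change -5.56 ± 0.55, adjusted p = 1.03e-05, or -6.17 without GSK3i/L replicate 1 and -4.91 without GSK3i/L replicate 3). Otx2, an epiblast and head factor, had 15.4, 7.37 and 11.2 RPM in GSK3i/L, against 54.0, 29.5 and 38.3 RPM in S/L (log2 fold change -1.86 ± 0.29, adjusted p = 0.000354), with 140.4, 127 and 123 RPM in MEKi/L. Both were separate from S/L in every library. Esrrb had 859, 713 and 354 RPM in GSK3i/L, against 190.3, 303 and 307 RPM in S/L (log2 fold change 1.20 ± 0.32, adjusted p = 0.0131), a call that was lost without GSK3i/L replicate 1 or 2 or S/L replicate 1, or with only the 6 libraries in the fit. Dppa3, a maternal factor that limits methylation maintenance, was the lower naive member, with 4.45, 5.41 and 7.76 RPM in GSK3i/L, against 24.1, 24.3 and 23.0 RPM in S/L (log2 fold change -2.06 ± 0.26, adjusted p = 8.05e-05). Dnmt3a, a de novo DNA methyltransferase, had 38.3, 33.2 and 19.3 RPM in GSK3i/L, against 141, 122 and 137 RPM in S/L (log2 fold change -2.20 ± 0.28, adjusted p = 8.61e-05), whereas Uhrf1, which guides maintenance methylation, had 632, 486 and 245 RPM in GSK3i/L, against 122, 159 and 151 RPM in S/L (log2 fold change 1.56 ± 0.32, adjusted p = 0.00267).

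Several smaller programs leaned downward in GSK3i/L. Of 20 listed genes of the 2-cell-like state 8 could be tested and were lower (14 with no filter, 5 with a filter of 1 RPM), but they reached the filter through S/L, which fixes that direction. The Zscan4 family led them. Zscan4d had 0, 0.128 and 1.15 RPM in GSK3i/L, against 33.8, 23.2 and 15.5 RPM in S/L (log2 fold change -6.64 ± 0.79, adjusted p = 4.38e-05, or -5.90 without GSK3i/L replicate 1 and -7.79 without GSK3i/L replicate 3), and since the family members are near-identical their reads may be split between them. Of 23 tested germline genes with methylated promoters 11 were lower and 1 higher, among them Mael, a piRNA factor, with 4.14, 4.80 and 14.2 RPM in GSK3i/L, against 61.7, 44.5 and 36.8 RPM in S/L (log2 fold change -2.83 ± 0.43, adjusted p = 0.000328). Of 22 tested interferon genes 8 were lower and 2 higher. Gbp2, a guanylate-binding protein, had 0.470, 0.128 and 0.324 RPM in GSK3i/L, against 20.7, 6.64 and 12.6 RPM in S/L (log2 fold change -5.48 ± 0.85, adjusted p = 0.000366), and Gbp1 is a close relative that could share its reads. Of 31 tested imprinted genes 10 were lower and 4 higher. Peg10, a retrotransposon-derived gene of placenta, had 53.9, 17.8 and 17.8 RPM in GSK3i/L, against 135, 107 and 132 RPM in S/L (log2 fold change -2.26 ± 0.39, adjusted p = 0.000833), while Igf2, a fetal growth factor, had 77.8, 98.7 and 80.9 RPM in GSK3i/L, against 32.4, 16.2 and 21.6 RPM in S/L (log2 fold change 1.92 ± 0.25, adjusted p = 7.92e-05). Igf2 was also far above MEKi/L, where it had 3.93, 3.89 and 3.13 RPM.

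Cell cycle genes gave no single direction. Of 24 tested G1 genes 6 were higher and 6 lower (25% and 25%), against 16.8% and 14.4% of all tested genes. Cdkn1a, the inhibitor p21, had 173, 266 and 112 RPM in GSK3i/L, against 25.5, 52.7 and 40.6 RPM in S/L (log2 fold change 2.19 ± 0.31, adjusted p = 0.000161), and Cdkn2a, the locus of p16 and p19ARF, had 18.8, 22.7 and 23.5 RPM in GSK3i/L, against 9.24, 8.18 and 8.02 RPM in S/L (log2 fold change 1.35 ± 0.19, adjusted p = 0.000154). Ccne1, cyclin E1, had 201, 139 and 203 RPM in GSK3i/L, against 317, 338 and 327 RPM in S/L (log2 fold change -0.88 ± 0.16, adjusted p = 0.00146). Cdkn1a is a target of p53, yet 6 of 21 tested p53 targets were lower and Cdkn1a was the 1 that was higher. The lower count was 2 without S/L replicate 2 and 2 without S/L replicate 3.

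**Figure D5:**
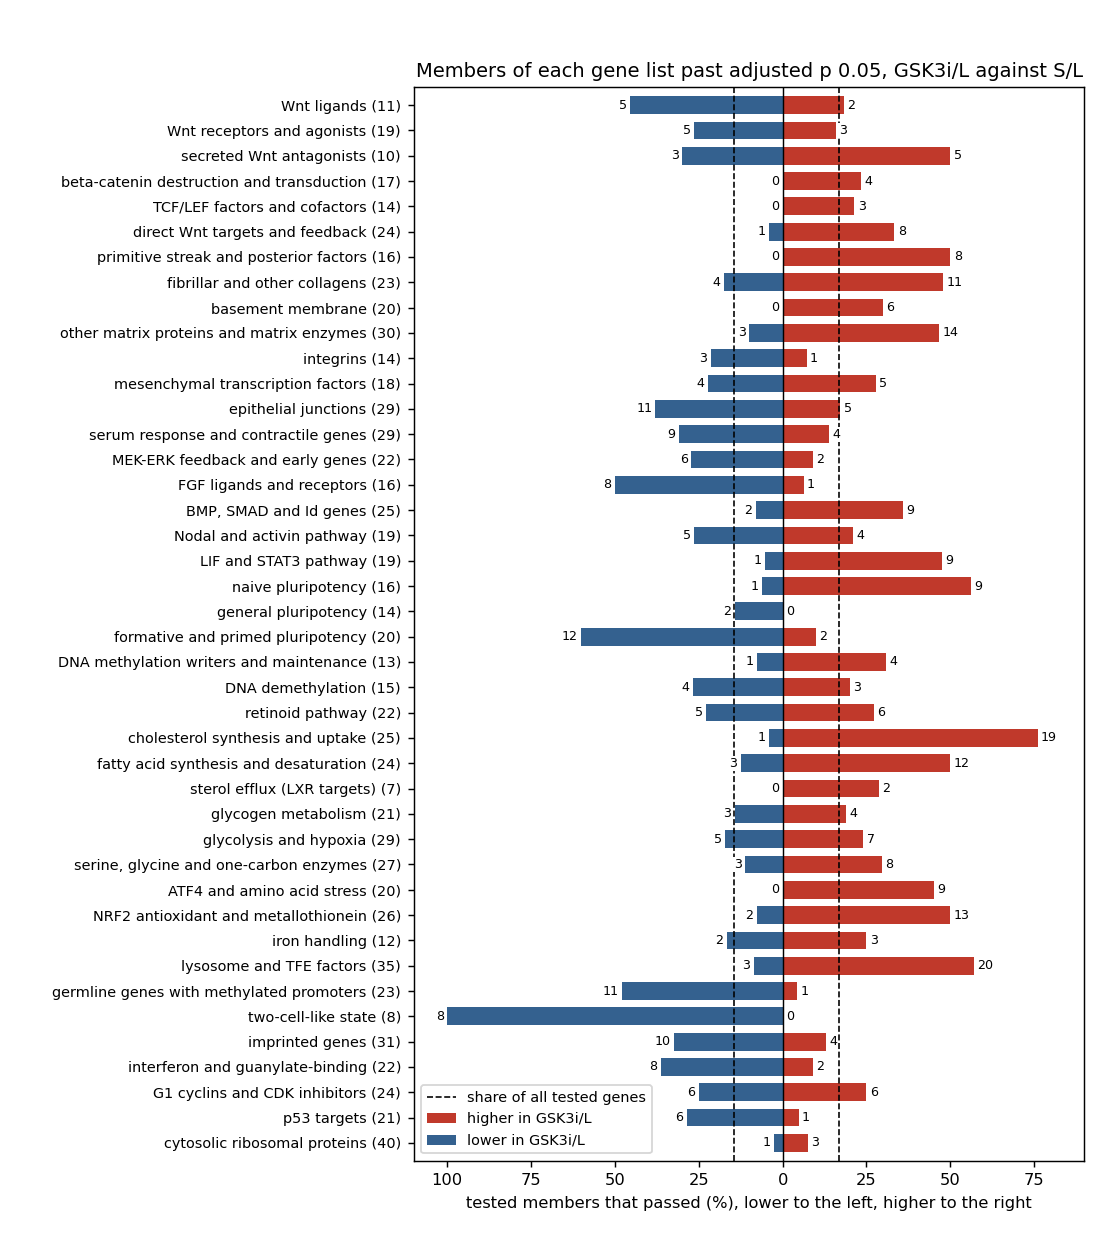
Share of the tested members of each of 42 gene lists that passed an adjusted p of 0.05 between GSK3i/L and S/L, in percent, with members higher in GSK3i/L in red to the right and members lower in GSK3i/L in blue to the left. Numbers at the bars are members, numbers in brackets are members tested, and dashed lines mark the shares of all tested genes, 16.8% higher and 14.4% lower. Cholesterol synthesis, lysosome and naive pluripotency extend farthest to the right, and the 2-cell-like state, formative pluripotency and FGF genes farthest to the left.

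With the transcript score as a covariate some counts of these lists differed by over 1.5 times from those above. MEK-ERK feedback genes then had 0 higher members (against 2), and lower members were 2 (against 1) of the naive factors, 8 (against 5) of the retinoid genes and 4 (against 2) of the antioxidant and metallothionein genes. Of the 10 defining markers of embryonic stem cells 4 were then higher and 2 lower, against 3 and 0. Of the primitive endoderm markers 2 were then higher and 1 lower, against 3 and 0.

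Markers of other cell types were read beside these results. Primitive endoderm markers summed to 88.7 to 256 RPM in GSK3i/L and 54.9 to 78.0 RPM in S/L, with 3 of 11 tested members higher (Sox7, Pdgfra and Lama1) and 0 lower (1 at an unadjusted p under 0.05). The call of Pdgfra was lost without GSK3i/L replicate 1 or 2 or S/L replicate 1 or 3. Gata4, a defining factor of that lineage, had 3.34, 1.82 and 1.01 RPM in GSK3i/L, against 0.878, 2.17 and 1.09 RPM in S/L. Gata6, another, had 3.56, 2.06 and 0.740 RPM in GSK3i/L, against 1.09, 1.70 and 1.09 RPM in S/L. Both overlapped, and neither passed. Their part in the Lama1 result was not tested. Ttr was at 0 in all 6 libraries. Trophoblast markers summed to 35.4 to 45.6 RPM in GSK3i/L and 37.4 to 41.3 RPM in S/L, with Elf5, Tpbpa, Prl3d1 and Psg22 at 0 throughout. Neural markers summed to 87.0 to 124 RPM in GSK3i/L and 150.3 to 199.9 RPM in S/L. Of 13 tested 4 were lower and 3 higher (30.8% and 23.1%), against 14.4% and 16.8% of all tested genes. Pax6, a neural factor, had 8.67, 7.16 and 11.7 RPM in GSK3i/L, against 33.1, 29.2 and 33.1 RPM in S/L (log2 fold change -1.82 ± 0.19, adjusted p = 1.7e-05), and Zic1, a zinc finger factor of dorsal neural tissue and mesoderm, had 17.2, 14.4 and 14.8 RPM in GSK3i/L, against 0, 0.0893 and 0 RPM in S/L (adjusted p = 1e-05), opposite to Pax6. Endothelial and blood markers summed to 57.8 to 87.1 RPM in GSK3i/L and 46.2 to 53.5 RPM in S/L, mostly Pecam1, which embryonic stem cells also express. Of 9 tested members 3 were higher and 1 lower (2 and 2 with the transcript score as a covariate). Beside Pecam1 (0.89 ± 0.23), the higher ones were Runx1, a factor of blood formation, with 4.03, 1.90 and 1.96 RPM in GSK3i/L, against 0.763, 0.925 and 0.711 RPM in S/L (log2 fold change 1.63 ± 0.36, adjusted p = 0.00429), and Sfpi1, a myeloid factor, with 0.906, 0.660 and 1.01 RPM in GSK3i/L, against 0.241, 0.467 and 0.435 RPM in S/L (log2 fold change 1.21 ± 0.43, adjusted p = 0.0439), whose call was lost without any 1 of the 6 libraries. Cdh5, Emcn, Hba-x, Hbb-y and Ptprc were at 0 in every library. The part of any such cells in the results was not tested.

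Set against MEKi/L, with the same basal medium, 624 genes (4.17%) were higher in GSK3i/L and 1295 (8.64%) lower at 2-fold, and 847 (5.65%) and 1823 (12.2%) at any fold. The deposited columns of these 2 groups are not on the same scaling, and the share of higher calls, 32.5%, was 43.5% when the medians of tested genes were set equal and 43.9% after quantile normalization. The score of long against short transcripts was 0.69, -1.88 and -1.43 in MEKi/L replicates 1 to 3, so replicate 1 stood apart there too. With that score as a covariate 746 genes were higher and 1435 lower at 2-fold. The comparisons with S/L and with MEKi/L share the 3 GSK3i/L libraries, so values are given side by side and not as support for each other. For Col3a1, Trpm1, Ntn1 and Bdh1 the log2 differences from S/L were 9.12, 5.21, 3.29 and 2.52, and those from MEKi/L were 9.26, 2.88, 6.60 and 1.77, all of which passed. The mean level of Ntn1 was lower in MEKi/L, at 2.62 RPM, than in S/L, at 22.2 RPM. Those of Trpm1 and Bdh1 were higher in MEKi/L, at 12.0 and 22.5 RPM, against 2.82 and 13.1 RPM in S/L. Col3a1 was near 0 in both. For Scd1, Tfcp2l1, Ephx2 and Acss1 the differences from MEKi/L were -0.18, 0.32, -0.24 and -0.23, none of which passed (adjusted p from 0.586 to 0.754).

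By list, direct Wnt targets had 10 higher and 2 lower of 24 against MEKi/L, posterior factors 7 and 2 of 16, collagens 8 and 2 of 23, and other matrix genes 12 and 2 of 30, where 5.65% and 12.2% of all tested genes passed. Thbs1, of the other matrix genes, is an example with MEKi/L values given above. Lists with few members passing against MEKi/L were cholesterol synthesis, fatty acid synthesis, ATF4 targets, LIF and STAT3 genes and the 2-cell-like state, with 2, 1, 1, 1 and 0 members higher than in MEKi/L and 1, 0, 1, 2 and 0 lower (for the 2-cell-like genes 0 in both directions at an unadjusted p under 0.05, with most near 0 reads in both media). Germline genes were lower than in MEKi/L as well, with 11 of 23 lower and 0 higher (0 at an unadjusted p under 0.05). Among the abundant falls, Myo1f and Aass were lower than in MEKi/L (-2.67 and -2.98), whereas Plac8 was higher (2.45) and Gpx4, Cdkn1c and Tcf15 did not pass. MEKi/L had 2.73, 3.96 and 5.59 RPM of Aass and 1.14, 2.81 and 1.61 RPM of Plac8.

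Cells kept in the same GSK3i/L medium for 24 days gave 2 libraries on the plain RPM scale, and their levels are set beside the 8-day ones as values without a test. Col3a1, Col1a2, Col6a1, Col6a3, Tnc, Prrx1, Foxc1, Lum and Dkk2 had 0 reads in both 24-day libraries. Col1a1 had 0.152 and 0.264 RPM, Cdh11 had 0.228 and 0.264 RPM and Thbs1 had 0 and 0.0881 RPM, all under 1 RPM as well. Fn1 and Vim stayed expressed, at 178 and 387 RPM and 130.4 and 112 RPM. Axin2, Sp5, T and Nkx1-2 were still present, with 22.2 and 25.5 RPM of Axin2, 11.4 and 7.31 RPM of Sp5, 13.6 and 10.2 RPM of T and 8.05 and 8.01 RPM of Nkx1-2. Both 24-day libraries were above every S/L library for each of these genes. The summed level of all listed direct Wnt targets was 219 and 231 RPM in the 24-day libraries, below the 8-day range of 387 to 521 RPM in GSK3i/L and below that of 271 to 297 RPM in S/L. That sum includes abundant members that did not pass, such as Ccnd1, and is not a measure of the targets that rose. The score of long against short transcripts was -3.585 and -2.918 in the 24-day libraries. Trpm1 stood at 147 and 194 RPM, above its 8-day levels in both libraries. In 2i/L at 8 days, Col3a1 had 1.91, 1.98 and 1.65 RPM, Tnc had 0.457, 0.474 and 0.397 RPM and Prrx1 had 0, 0.0790 and 0.132 RPM, against 57.0, 76.3 and 67.7 RPM of Axin2.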

How the data were processed

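RNA libraries were strand-specific, made from poly(A) RNA and read as 50-base single ends, per the labels' protocols. HISAT2, Trim Galore 0.6.5 and the build GRCm38 are named per the submitters' processing notes, which give no HISAT2 version; the sources used here give no annotation, counting options or use of strand, so overlapping and antisense genes may share reads. The deposited table held log2 RPM of 25965 genes in 14 libraries. As deposited, the 6 compared columns share 1 distribution (sorted values differ by at most 0.0831 above 2 RPM) and the other 8 do not, a step that no source used here states. Values at a column's minimum were taken as 0 reads on the linear scale.

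The 14 libraries were fitted with limma 3.58.1 in R 4.3.3 (group means, trend, robust) on the deposited log2 values without a pseudocount, so fitted changes of genes near 0 depend on the deposited minimum. The filter of 0.5 RPM or more in 3 or more libraries left 14980 genes to test. Genes such as Tnc and Prrx1 that reach this filter only in GSK3i/L could not be called lower, and list counts include them. Calls needed a Benjamini-Hochberg adjusted p under 0.05 and 2-fold; list members needed the first only. Between 8079000 and 18410000 reads per library limit precision at low levels. Fold bounds use 3 reads per library in the group without reads (0.329 RPM in S/L, the higher of its deposited and depth-scaled values); genes with 1 to 3 reads in a group get no fold. Such floors cover counting error only. The code was tested on simulated data.

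Genes were named as the 15 largest rises and 15 largest falls that passed, did not overlap and averaged at least 50 RPM in the higher group (predicted genes, Rik clones and pseudogenes left out), up to 4 passing members with the largest changes in each direction of each of 50 lists, all direct Wnt targets, and members that carry the role described. Of 1156 list entries 1147 were found. The members and lists were chosen with earlier results of these data known. Promoter windows are from RefSeq (GRCm38.p6). A few genes that the rule names are not reported here, and bisulfite samples were not used here. Alternatives covered scaling (TMM among others), filter, pseudocount, fit, score covariate, replicate block and single left-out libraries.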

Additional observations from a re-analysis of the deposited data

How the results depend on the processing

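Of 343 genes checked, 108 changed sign or side of the threshold under at least 1 of the alternatives run; the 18 that changed sign had all missed it in the reported fit. With log2(RPM + 1), 863 genes were higher than in S/L and 409 higher than in MEKi/L. Leaving out single libraries gave 1093 to 1892 genes higher and 979 to 2097 lower than in S/L, with 979 without S/L replicate 1 and 1892 and 2097 without GSK3i/L replicate 3, and 477 to 659 higher and 1096 to 1406 lower than in MEKi/L. With only the 2 groups fitted the counts against S/L were 1100 and 1107. The causes were not tested. The replicate block gave 1415 higher and 1551 lower, but same-numbered libraries did not deviate together (r = -0.286, 0.226 and -0.247 for replicates 1 to 3), so the samples share only a number.

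These 18 crossed 0 on the log2 scale. Dkk1 was 0.035 with quantile normalization, 0.025 with log2(RPM + 0.5) and 0.040 with log2(RPM + 1), and -0.82 to 0.86 with 1 library left out. Pou5f1 was -0.0057 with TMM scaling. With the score of long against short transcripts in the fit, Cdh1 was -0.15, Lef1 -0.30, Lin28a -0.058, Sall4 -0.38 (adjusted p = 0.0376), Socs3 -0.030 and Tfe3 -0.29. Ranges with 1 library left out were -0.024 to 0.090 for Pou5f1, -0.095 to 0.22 for Lef1, -0.25 to 0.46 for Sall4, -0.024 to 0.20 for Socs3, -0.10 to 0.45 for Tfe3, -0.14 to 0.034 for Ascl2, -0.033 to 1.10 for Gata6, -0.075 to 0.35 for Thy1, -0.37 to 0.11 for Dusp6, -0.10 to 0.72 for Rnf43, -0.66 to 0.014 for Zfp42, -0.078 to 0.37 for Ddit3, -0.33 to 0.23 for Kremen1, -0.63 to 0.0016 for Utf1 and -0.039 to 0.29 for Atf4. Low depth and 3 libraries a group limit what can be seen under about 1 RPM.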
